A study of Panicum virgatum with 8 samples.

Results

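The miRNA families that plants are known to use in copper, phosphate and sulfate supply were examined in switchgrass (Panicum virgatum). A locus was included where the arm of higher or equal abundance carried a miRBase name of miR397, miR398, miR408 or miR528 (the copper families), miR399 or miR827 (the phosphate families), or miR395 (the sulfate family). This rule found 26 of the 210 loci in the deposited table of predicted precursors, of which 9 were copper, 12 were phosphate and 5 were sulfate loci, and all 7 families were present. The loci carried 9 distinct miRNA sequences, and each locus was counted once. The table was made from small RNA libraries of the genotype AP13, with 1 library for each of 8 conditions. These were cold at 4 °C for 24 h with its control, drought sampled on day 11 without water and re-watering sampled on day 12 with their own control, and leaf, stem and panicle. The labels give the tissue of the control and stress libraries as all of the plant above ground, whereas the study's methods describe upper leaf blades. No library is named in the table and each sequence has a single abundance, so the libraries are taken as pooled, which means that no condition could be compared, that no value has a replicate error and that the read depth behind a single value cannot be read from the table. The abundances are whole numbers whose unit is not named.

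In plants these families are part of the response to a short supply of the nutrient. In Arabidopsis, copper shortage raises miR397, miR398 and miR408, which direct cleavage of transcripts for copper-containing proteins, namely laccases for miR397, copper/zinc superoxide dismutases for miR398 and a plastocyanin-like protein and laccases for miR408. miR528 is found in monocots and has copper proteins such as an ascorbate oxidase among its targets in rice. miR399 acts on the ubiquitin-conjugating enzyme PHO2, which limits phosphate uptake, and in Arabidopsis it moves from the shoot to the root in the phloem. miR827 acts on transcripts of SPX-domain proteins of phosphate storage and transport in rice, and miR395 acts on ATP sulfurylases and a sulfate transporter in Arabidopsis. A miRNA is cut from a folded precursor, the hairpin, together with the strand paired to it, the miRNA*.

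The 9 sequences are shown because every abundance below belongs to 1 of them and because they separate the families by seed. They are written 5′ to 3′ as DNA letters, as the table has them, and the capitals mark the seed, bases 2 to 8.
ppe-miR397: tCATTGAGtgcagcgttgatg
ata-miR398g-3p: tGTGTTCTcaggtcgcccccg
cpa-miR408: cTGCACTGcctcttccctggc
ata-miR528-5p: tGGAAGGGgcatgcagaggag
ata-miR399a-3p: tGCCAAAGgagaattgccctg
stu-miR399f-3p: tGCCAAAGgagagctgccctg
mes-miR399f: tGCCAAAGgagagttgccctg
ssp-miR827: tTAGATGAccatcagcaaaca
ata-miR395c-3p: tGAAGTGTttgggggaactc

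The prefixes are those of the matched miRBase entries in other species, so they name the match and not a switchgrass gene. There were 7 distinct seeds, and only the 3 miR399 sequences shared theirs. None of the other miRNA sequences on the arm of higher or equal abundance had any of these seeds. The miRNA* strands were not searched for them. The first base was T in 8 of the 9 sequences and C in cpa-miR408. All were 21 nt long except ata-miR395c-3p, which had 20 nt. G and C made up 14 bases in both ata-miR398g-3p and cpa-miR408 and 8 bases in ssp-miR827. Positions counted from the 5′ end of the miRNA, mes-miR399f differed from ata-miR399a-3p by G13A and from stu-miR399f-3p by T14C, both outside the seed.

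The copper families ranged widely in pooled abundance. The highest was cpa-miR408 at 596, followed by ata-miR398g-3p at 120 and ata-miR528-5p at 77. The laccase regulator ppe-miR397 was at 4, which placed it at rank 54 of the 59 distinct sequences of the table. Of the phosphate families, ssp-miR827 was the highest of all 9 sequences at 674. The miR399 sequences were listed at 123 for mes-miR399f, 29 for stu-miR399f-3p and 5 for ata-miR399a-3p. The miR399 sequences that differ by the single base at position 13 thus differed 24.6-fold in listed abundance, but without an error no test could be made. The sulfate sequence ata-miR395c-3p was at 55.

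Summed over distinct sequences, abundance was 797 in the copper families, 831 in the phosphate families and 55 in the sulfate family. The copper and phosphate sums were each carried mostly by a single sequence, cpa-miR408 with 596 of 797 and ssp-miR827 with 674 of 831. ssp-miR827 and cpa-miR408 made up 40.0% and 35.4% of the 1683 summed over all 9. This sum was 0.599% of the 280996 summed over the table. The median was 77 over the 9 sequences and 209 over the other 50, which ranged from 2 to 185355. The 9 sequences lay within that range, between ranks 20 and 54 of 59. An abundance under 10 was listed for 2 of the 9, ppe-miR397 and ata-miR399a-3p, against 22% of all 59 sequences in the table.

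**Figure D1:**
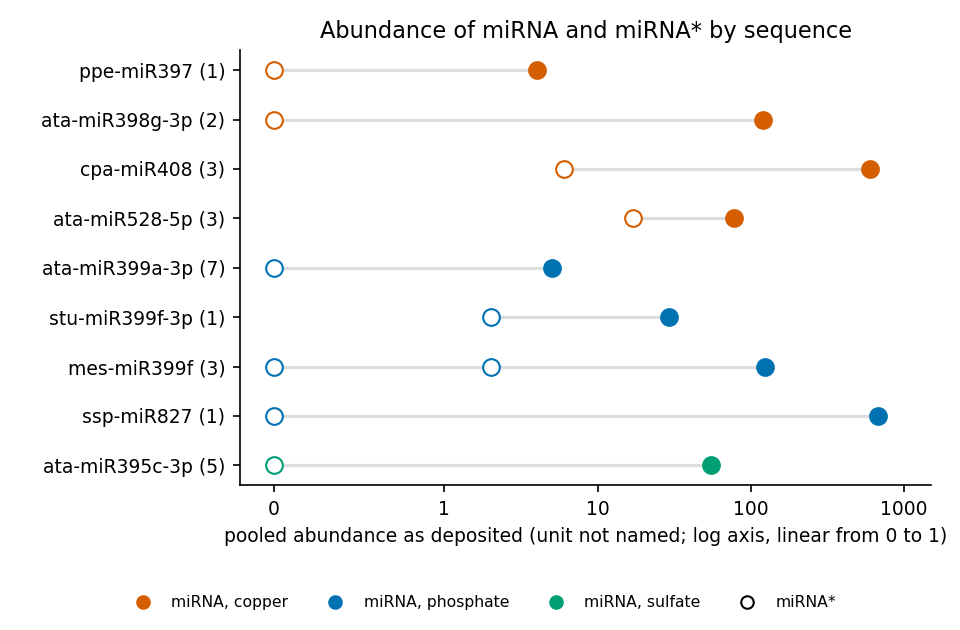
Pooled abundance of the miRNA (filled) and of its miRNA* (open) for the 9 sequences, on a log axis that is linear from 0 to 1, with the number of loci in parentheses and the copper, phosphate and sulfate families in colour. The miRNA values run between 4 and 674, and the miRNA* of cpa-miR408, ata-miR528-5p, stu-miR399f-3p and, at some loci, mes-miR399f lie above 0.

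The number of loci per sequence did not follow the order of abundance. The low-abundance ata-miR399a-3p had the most loci, 7, and ata-miR395c-3p had 5, whereas ssp-miR827, the most abundant, had 1 locus. There were 3 loci each for cpa-miR408, ata-miR528-5p and mes-miR399f, 2 for ata-miR398g-3p and 1 each for ppe-miR397 and stu-miR399f-3p. All loci of a sequence share its single abundance, so the output of a locus was not measured. On average there were 2.89 loci per sequence in these families and 3.68 in the rest of the table.

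A miRNA* with an abundance of at least 1 was listed at 9 of the 26 loci (34.6%), against 43.8% of all 210 loci. These were 6 of 9 copper loci, 3 of 12 phosphate loci and 0 of 5 sulfate loci. The counts are of loci and not of separate values. The 3 miR408 loci shared 1 miRNA* at 6, all 3 miR528 loci were given 17, and 2 mes-miR399f loci shared 1 miRNA* at 2. Within the copper families the split was by family, with all 3 loci each of miR408 and miR528 above 0 and the 3 loci of miR397 and miR398 at 0. The ata-miR528-5p strand at 77 was paired with a miRNA* at 17, the highest miRNA* of the group, which gave 4.53 miRNA per miRNA*. For cpa-miR408 the values were 596 and 6, a ratio of 99.3. A miRNA* abundance of at least 10 was thus listed at 3 of the 26 loci, those of miR528, against 17.6% of all loci. The phosphate miRNA* were at 2, which gave ratios of 61.5 for mes-miR399f and 14.5 for stu-miR399f-3p. For mes-miR399f, the miRNA* was listed at 2 for the Chr07K and Chr07N loci and at 0 for the Chr05K locus, where its sequence was another. The ratio of 61.5 thus sets an abundance shared by all 3 loci against a miRNA* of the Chr07K and Chr07N loci only. ssp-miR827 had a miRNA* at 0 despite its abundance of 674. In every structure of the table a miRNA* above 0 had a miRBase name and a miRNA* at 0 had none. A miRNA* at 0 is therefore only listed at 0, and reads of it may exist.

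The miR528 miRNA* strands are shown because their listed sequences differed in length while their abundance did not. The capitals mark the shared part, which is the miRNA* named ata-miR528-3p.
Chr01N: CCTGTGCCTGCCTCTTCCATT
Chr09K: ctCCTGTGCCTGCCTCTTCCATT
Chr09N: cgctctCCTGTGCCTGCCTCTTCCATT

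The listed strands were 21, 23 and 27 nt long, each with a miRNA* abundance of 17. The Chr09K and Chr09N strands thus carried 2 and 6 further bases at the 5′ end. Strands of different length were thus given 1 value, and whether reads of the longer strands were present is not known.

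Of the 26 loci, 24 had a predicted structure within the limits of the study's methods (a miRNA of 20 to 24 nt in a precursor of less than 300 nt, with no more than 5 positions mismatched, and no more than 3 nt in asymmetric bulges), against 88.1% of all loci. The further criteria of the methods were not applied here. An abundance under 10 was listed for ppe-miR397 and ata-miR399a-3p, 2 of the 9 sequences, against 22% of all sequences. These have 8 of the 26 loci, of which 7 share the single value of ata-miR399a-3p. The share over all loci was not computed. The loci outside the structural limits were the miR528 locus on Chr09N from 120070859 to 120070996, with 7 mismatch positions and 5 nt in bulges, and a miR395 locus on Chr07N from 66000068 to 66000191, with 6 mismatch positions. The authors' call in the structure used was miRNA candidate for 21 of the 26 loci, against 77.1% of all loci. It was miRNA-like for 4 and bad seq for 1, against 36 and 12 of all 210 loci. The miRNA-like loci were both ata-miR399a-3p loci of Chr01K, the miR528 locus of Chr09K and the miR395 locus outside the limits, and the bad seq locus was the miR528 locus of Chr09N. At 15 of the 26 loci the pairing had no nucleotide in an asymmetric bulge, against 52.4% of all loci.

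The miRNA lay on the 3′ arm of the hairpin at 21 of the 26 loci, against 45.7% of all loci. All 12 phosphate loci and 5 of the 9 copper loci were of this kind, and the 5′ arm carried the miRNA at the ppe-miR397 locus and the 3 miR528 loci. Of the miR395 loci, 4 had it on the 3′ arm. The exception was the Chr07N locus outside the limits, where the energy was also the weakest of the 26, at -34.6 kcal/mol.

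Precursor size and energy are given by family, since families of 1 nutrient had unlike precursors. The precursors of cpa-miR408 were long, at 206, 220 and 242 nt, with 114, 128 and 150 nt between miRNA and miRNA* and energies of -91.5, -94.9 and -93.4 kcal/mol. Those of miR395 within the limits were short on Chr03K and Chr07K, at 88 to 92 nt, with 23 to 27 nt between the strands and energies from -53.8 to -48.0 kcal/mol. The remaining miR395 locus within the limits, on Chr07N from 66000707 to 66000841, had 135 nt and -69.7 kcal/mol. Most miR399 precursors lay between these, with a median of 135 nt and -65.5 kcal/mol over 11 loci. The mes-miR399f locus on Chr05K from 63522874 to 63523095 stood apart from them, with 222 nt, 159 nt between the strands and -127.2 kcal/mol, the lowest energy of the 26. The single ssp-miR827 precursor, on Chr01N from 73029330 to 73029476, had 147 nt, 1 mismatch position and -76.9 kcal/mol, and the single ppe-miR397 precursor, on Chr01K from 6588272 to 6588366, had 95 nt, 4 mismatch positions and -70.6 kcal/mol.

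The median energy was -70.6 kcal/mol for copper, -65.9 kcal/mol for phosphate and -53.5 kcal/mol for sulfate loci, and the median precursor had 138, 136.5 and 92 nt in that order of groups. Per nucleotide of the precursor, the medians were -0.488 kcal/mol for copper, -0.513 kcal/mol for phosphate and -0.522 kcal/mol for sulfate, so that the order of the groups was the opposite of that of the energies themselves. The lowest value per nucleotide of the precursor was -0.743 kcal/mol for ppe-miR397, followed by -0.608 kcal/mol at the miR395 locus of Chr03K (62336346). Both orders depend on this scaling, which was chosen after seeing the data. Per nucleotide of the hairpin, the medians were -0.536 kcal/mol for copper, -0.533 kcal/mol for phosphate and -0.571 kcal/mol for sulfate. The lowest locus was then ata-miR398g-3p of Chr02N at -0.814 kcal/mol, ahead of ppe-miR397 at -0.768 kcal/mol. At that Chr02N locus the hairpin had 84 nt of the 127 nt precursor, and the value per nucleotide of the precursor was -0.538 kcal/mol. The listed energy may cover the whole precursor, so dividing it by the hairpin may not give the energy of the hairpin alone. Over all 26 loci the median energy was -68.2 kcal/mol, within the range of the other 184 loci (median -70.4 kcal/mol). No statistical test was made between groups, because loci of a family share their sequence and are not replicates.

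Switchgrass AP13 is tetraploid and each of its chromosomes has a copy in the K and in the N subgenome. Coordinates are those of version 4.1 of its genome. Of the 26 loci, 14 lay on K and 12 on N chromosomes, and none on an unplaced scaffold. They were on 11 chromosomes, and chromosomes 4, 6 and 8 held none. miR399 was the most widely spread family, with 11 loci on 8 chromosomes, whereas the 3 miR408 loci were all on chromosome 5 and the 5 miR395 loci on Chr03K, Chr07K and Chr07N. Grouped by miRNA sequence and chromosome number, the loci fell into 15 sets, and 7 of these had both a K and an N copy, against 58.7% of such sets in the whole table. By nutrient these were 3 of 5 copper, 3 of 8 phosphate and 1 of 2 sulfate sets. The sets in 1 subgenome only were those of ppe-miR397 on Chr01K, of miR528, stu-miR399f-3p and ssp-miR827 on Chr01N, of ata-miR399a-3p on Chr02N and on Chr03K, of mes-miR399f on Chr05K, and of miR395 on Chr03K with 2 loci. A copy that the table does not list may still be in the genome, since the methods describe criteria on abundance, genome hits and bias before folding. The Chr02N and Chr03K loci of ata-miR399a-3p (73473109 to 73473246 and 26585845 to 26585988) had the same miRNA*, gggtatatctcctttggcacg, although their chromosome numbers differ.

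**Figure D2:**
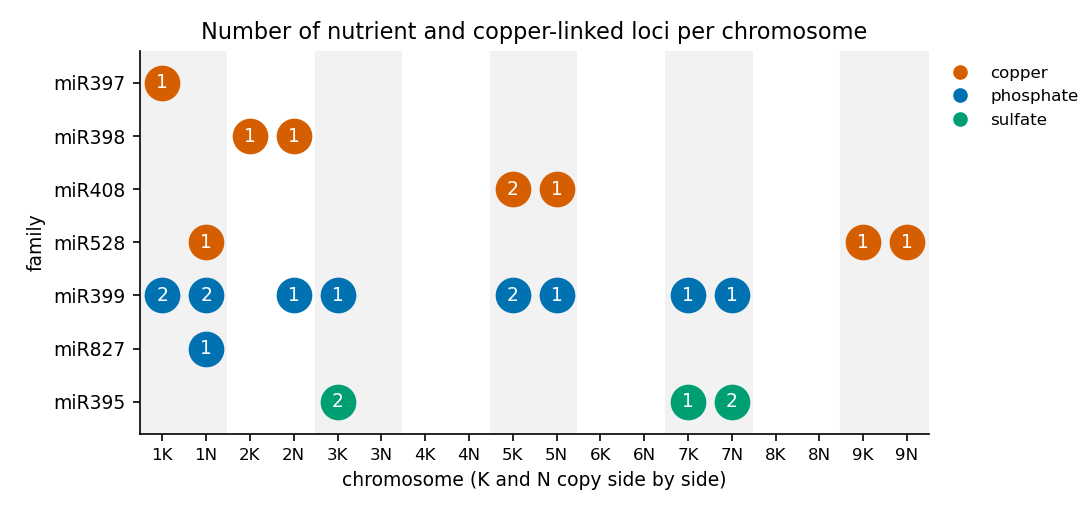
Number of loci of each family on each chromosome, with the K and the N copy side by side and colours for the copper, phosphate and sulfate families. Of the 26 loci, 14 are on K and 12 on N copies, and miR399 is on 8 chromosomes.

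In 3 of the 7 sets with both copies, a K and an N locus had the same miRNA*. These were cpa-miR408 on chromosome 5, ata-miR399a-3p on chromosome 5 and mes-miR399f on chromosome 7. In their 4 K and N pairings the energies were within 2.62 kcal/mol of each other. For mes-miR399f, it was -68.0 kcal/mol for Chr07K (60585734 to 60585868) and -65.4 kcal/mol for Chr07N (59625682 to 59625819). For ata-miR399a-3p, it was -62.8 kcal/mol on Chr05K (92571374 to 92571491) and -60.6 kcal/mol on Chr05N (84888943 to 84889057).

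Where the K and N miRNA* had the same length and differed, they did so at a single base. These strands are shown with that base in capitals.
ata-miR398g-3p miRNA*, Chr02K: ggggcgaGctgcgaacacatg
ata-miR398g-3p miRNA*, Chr02N: ggggcgaCctgcgaacacatg
ata-miR399a-3p miRNA*, Chr01K: gtgcTgttctcctctggcacg
ata-miR399a-3p miRNA*, Chr01N: gtgcGgttctcctctggcacg

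With positions counted from the 5′ end of the miRNA*, the change from the K to the N strand was G8C for miR398. This base faces position 12 of the miRNA, where it formed no pair in K and a Watson-Crick pair in N. The K copy (27963341 to 27963445) had 3 mismatch positions and -51.2 kcal/mol and the N copy (34759300 to 34759426) had 2 mismatch positions and -68.4 kcal/mol. For miR399 the change was T5G, which faces position 15 of the miRNA, with no pair in K and a G:U pair in N. Both Chr01K loci had this K strand and 5 mismatch positions, with -55.5 kcal/mol (14981200 to 14981315) and -52.8 kcal/mol (14999806 to 14999921). The Chr01N locus (15857148 to 15857268) had 3 mismatch positions and -65.5 kcal/mol. In the predicted fold, both Chr01K loci had 1 nt in asymmetric bulges and the Chr01N locus had 0. The facing positions given for miR398 and miR399 were read without gaps and not from that fold. The precursors also differed in length, with 105 nt in K and 127 nt in N for miR398 and 116 nt in K and 121 nt in N for miR399, and the part of the single base in the energy was not tested.

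Over the 10 pairings of a K with an N locus, the energy was lower in K in 5 and lower in N in 5. These pairings came from only 7 sets and are not independent. The Chr05N locus of cpa-miR408, the Chr01N locus of ata-miR399a-3p and the Chr07K locus of miR395 were each used again. In the cpa-miR408 and miR395 sets the pairings went both ways. The largest difference, K minus N, was -19.1 kcal/mol, between the single miR395 locus of Chr07K (69327241 to 69327330) and the Chr07N locus outside the structural limits. It was followed by 17.1 kcal/mol for miR398 and by 15.9 kcal/mol between the Chr07K locus of miR395 and the other one of Chr07N. The miR528 copies on chromosome 9, at 87418439 to 87418576 in K and 120070859 to 120070996 in N, were both 138 nt long and differed by -1.72 kcal/mol.

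**Figure D3:**
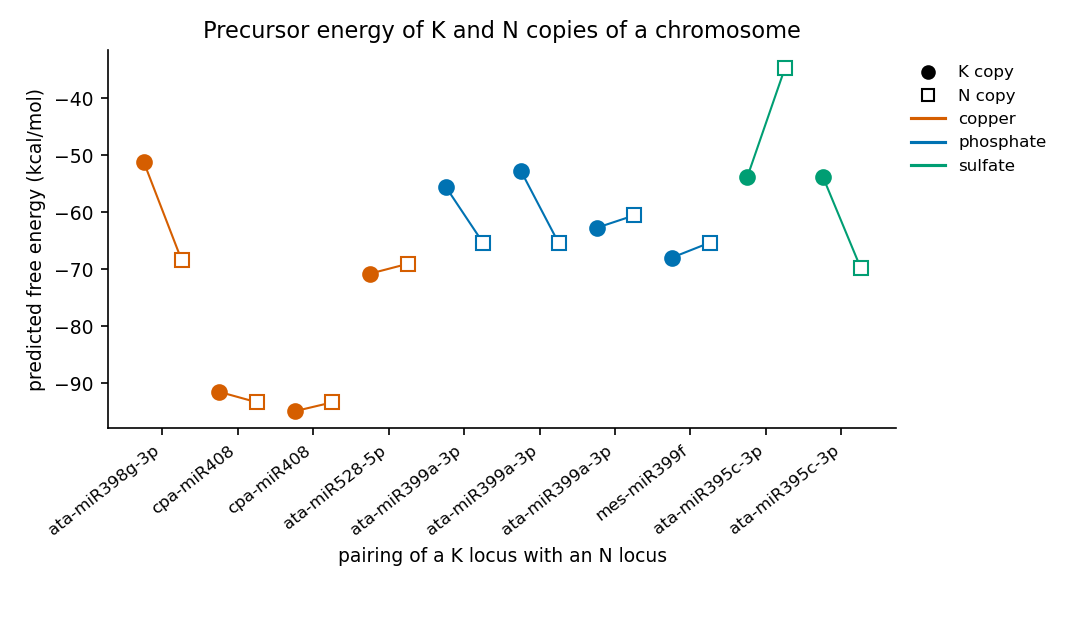
Predicted free energy (kcal/mol) of the K copy (filled circle) and the N copy (open square) for the 10 pairings of loci with the same miRNA on the same chromosome number. The energy is lower in K in 5 pairings and in N in the other 5, and the 4 pairings with the same miRNA* differ by at most 2.62 kcal/mol. Pairings of the same miRNA and chromosome number share a locus and are not independent.

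Loci of the same family within 10 kb of each other were taken as a tandem cluster. This held for 4 of the 26 loci, against 8.57% of all 210 loci, and for 0 of the 9 copper, 2 of the 12 phosphate and 2 of the 5 sulfate loci. The sulfate cluster was the pair of miR395 loci on the minus strand of Chr07N, 516 nt apart, and it includes the locus outside the structural limits. The phosphate cluster was on Chr01N, where stu-miR399f-3p (15848782 to 15848920, plus strand) and ata-miR399a-3p (minus strand) were 8.23 kb apart. On Chr01K the ata-miR399a-3p loci were on the same strand and 18.5 kb apart, and no stu-miR399f-3p locus was listed there. The cpa-miR408 loci of Chr05K (39047126 to 39047331 on the plus strand and 39155871 to 39156090 on the minus strand) were 108.5 kb apart, so they did not meet the distance. Loci of different families among the 7 were at least 3837 kb apart where they shared a chromosome. Genes near these loci were not examined.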

How the data were processed

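Small RNA libraries of 8 conditions, 1 each, were mapped by the authors with Bowtie (0.12.7 in the submitters' processing notes) to version 4.1 of the genome. Sequences of 20 to 24 nt that matched miRBase 21 were, per the methods, required to reach 10 TP10M in abundance and to match no more than 20 genome positions, and evaluated with modified miREAP, and precursors whose bias reached 0.9 for strand and 0.7 for abundance were folded with UNAFold (versions not given in the sources used here). The deposited abundances were treated as a score without a named unit, and their precision is not known. Some of them are under 10, and whether the abundance criterion held for the listed values could not be told. The study gives read totals by library, which are not used here because the values are pooled. Rows whose arm of higher or equal abundance was named for 1 of the 7 families were kept, 41 of 494, and reduced to 26 loci. Each locus was described by its most stable structure within the study's structural limits (the criteria on abundance, genome hits and bias were not applied), or its most stable structure where none met them. Pairing across the miRNA and miRNA* was read without gaps. The energy was divided by precursor length, since 2 structures of 1 precursor with unlike hairpin lengths had near-equal energies. No statistical test was made, since no value has replicates. Every sequence and locus found was named. The families and lists were chosen with earlier results of these data known. Locus selection and tandem distances were checked on 500 simulated loci, where 140 of 140 members and 20 of 20 tandem loci were found. All simulated members had a miR399 name, and the simulated distances were counted without regard to family. Each simulated locus had 1 structure and a miRNA* below its miRNA. The names of the other families and the choices of arm and structure were therefore not checked. Python 3.11.15, numpy 2.4.6, pandas 2.3.3 and matplotlib 3.10.9 were used.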

Additional observations from a re-analysis of the deposited data

How the results depend on the processing

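Of 50 values recomputed under an alternative, 41 stayed within 1.5 times the count or within 1 SD of the loci of their group, and 1 changed sign. This was the median energy of copper minus phosphate loci, -4.76 kcal/mol per precursor, -0.00327 kcal/mol per nt of hairpin and 0.0252 kcal/mol per nt of precursor, a scaling chosen after seeing the data. Requiring a miRNA* abundance of at least 10 left 3 loci in place of 9, all of them copper (3 in place of 6), with 0 in place of 3 phosphate loci. Loci in tandem numbered 2 in place of 4 at 5 kb or with the same strand required, and 8 at 200 kb, a distance chosen after seeing the data. Counted as distinct sequences, K had 7 in place of 14 loci and N had 8 in place of 12, so that K no longer had more than N. Sets with K and N copies numbered 3 in place of 7 when the miRNA* had to match too. Each of these counts is lower or higher because the alternative is narrower or wider by its definition. Some of the 41 values that stayed could not have changed. No member locus was on an unplaced scaffold, each copper family and the sulfate family had a single sequence, and no sulfate miRNA* was above 0. No paired analysis was possible because the table holds pooled values and no test was made. The table gives no read totals, so that the limit set by depth on a single value was not computed.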

Other observations

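The 9 loci with a miRNA* above 0 were also listed with the arms exchanged, in 12 further structures, so that the same abundances appear there with miRNA and miRNA* turned round. For the arm used here, 11 loci had 1 predicted structure and 15 had 2, and the energies of the 2 differed by 0.031 to 2.13 kcal/mol (median 0.628). No share over all loci was computed for these counts or for the structures with the arms exchanged, so they are not read as particular to these families. At 4 of these 15 loci, a count without a computed share over all loci, the authors' call differed between the structures. One was the ata-miR398g-3p locus of Chr02N, where the structure at -68.8 kcal/mol was called bad seq with 107 mismatch positions and the one at -68.4 kcal/mol was called miRNA candidate with 2. These values were chosen after they were seen.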
